A study of Sus scrofa with 2 samples.

Results

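The interferon stimulated genes described here are 9 genes chosen by name: MX1, MX2, ISG15, IFIT1, IFIT2, IFIT3, RSAD2, IRF7 and IFI6. The deposited table holds 27622 features, and 8 of the 9 genes had a row in it, each with 1 feature; no row was matched to IFI6. A ratio between libraries was taken for features above 0 in both libraries and at 1 RPKM (reads scaled to transcript length and sequencing depth) or more in at least one, which held for 16331 features and for 6 of the 9 genes: MX1, MX2, ISG15, IFIT1, IFIT2 and IFIT3. These 6 were above 1 RPKM in both libraries, so none of them passed the minimum through 1 library alone. RSAD2 was detected below the minimum, and IRF7 was listed at 0 in both libraries.

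RNA came from the cochlear lateral wall, which carries the stria vascularis (SV), the epithelium that secretes endolymph, of Rongchang pigs, in 1 library of an MITF R/r pig and 1 library of an MITF r/r pig. The r allele carries a change in the regulatory region of MITF that abolishes the melanocyte isoform MITF-M, and the R/r control also carries 1 r allele. The sample labels give the age as P1, whereas the text of the study places the sequenced tissue before birth, and the difference was not resolved. The comparison asks which transcripts differ between the r/r and the R/r SV. With 1 library per genotype the difference has no replicate check, and genotype cannot be told apart from the animal, the dissection or the library.

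The libraries held 15829244 (R/r) and 14258672 (r/r) mapped reads, recovered from the RPKM values. The counts recovered for the listed features added up to 89.3% of the total in each library. That percentage is not a measured share of reads on features. The count recovered for a feature may be only a fraction of its real count, and features that share reads may be counted more than once. For each gene the log2 ratio of RPKM, r/r over R/r, is given with an exact 95% interval (Clopper-Pearson) from its reads. These intervals cover counting error only and compare the libraries, not the genotypes. The labels were checked on MITF and on melanocyte genes. MITF, in the feature with the highest mean RPKM of 3 with that name, was 51.7 RPKM in the R/r and 37.8 RPKM in the r/r library, a log2 ratio of -0.45 (-0.75 to -0.16). DCT, an enzyme of melanin synthesis, was 171 RPKM in R/r and 1.19 RPKM in r/r, a log2 ratio of -7.17 (-7.52 to -6.84). TYR (11.8 and 0.176 RPKM) and TRPM1 (22.7 and 0.0142 RPKM, the latter from 1 read) were likewise near 0 in the r/r library alone. COCH of fibrocytes (6826 and 4914 RPKM), CLDN11 of basal cells (840 and 706 RPKM) and KCNE1 of marginal cells (278 and 248 RPKM) were abundant in both libraries, as the tissue label states.

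Type I interferons bind a receptor of IFNAR1 and IFNAR2, and the kinases JAK1 and TYK2 then phosphorylate STAT proteins, which join IRF9 in a complex that switches on interferon stimulated genes. Their products act against viruses at separate steps: MX1 and MX2 are GTPases that block viral nucleoprotein complexes, IFIT proteins bind foreign RNA or restrain translation, ISG15 is a ubiquitin-like protein, and RSAD2 (viperin) is a radical enzyme that makes a chain-terminating nucleotide. IRF7 amplifies interferon synthesis, and the cochlear lateral wall holds resident macrophages that can respond to interferons.

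Of the 6 genes with a ratio, 5 were higher in the r/r library by at least 1.2-fold (MX2, IFIT1, ISG15, MX1 and IFIT3), whereas 12.9% of all 16331 features were. The 1.2-fold threshold was chosen to suit differences already known from these data, so this count is a description and not a test. One member, IFIT2, was at least 1.2-fold lower, beside 17.3% of all features. That count became 0 with a pseudocount of 1 RPKM or after scaling by the median ratio. At 2-fold, MX2 was the 1 member higher, beside 1.78% of all features, and 0 members were lower, beside 2.20%. The intervals of 4 members (MX1, MX2, ISG15 and IFIT1) lay wholly above 0, which held for 11.2% of all features, and the interval of 0 members lay wholly below 0, which held for 14.5%. Depth differs between genes, so the same shares were taken over the 11724 features with at least 151 recovered reads in both libraries together. That is the count of IFIT3, the member with fewest recovered reads. Of these features, 7.85% were at least 1.2-fold higher and 13.6% had an interval wholly above 0. The median log2 ratio of the 6 genes was 0.46, with -0.02 for all 16331 features.

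In the R/r library MX1 had the highest level of the members at 39.8 RPKM (37.5 to 42.2), before ISG15 at 22.0 RPKM (19.3 to 25.0). IFIT2 (11.3 RPKM, 9.68 to 13.2) and IFIT3 (8.81 RPKM, 6.88 to 11.1) followed with overlapping intervals. IFIT1 (4.41 RPKM, 3.67 to 5.26) and MX2 (2.86 RPKM, 2.19 to 3.68) were lowest of the 6, and their intervals met. The order in the r/r library differed below the first 2 genes. MX1 was at 54.5 RPKM (51.6 to 57.4) and ISG15 at 30.2 RPKM (26.9 to 33.9). IFIT3 (11.0 RPKM, 8.74 to 13.7), MX2 (11.0 RPKM, 9.56 to 12.6) and IFIT2 (9.37 RPKM, 7.81 to 11.2) had overlapping intervals, above IFIT1 at 6.29 RPKM (5.35 to 7.35). MX2 thus moved from the lowest place among the 6 into a group with IFIT2 and IFIT3. The summed level of the 8 genes with a row was 89.5 RPKM in R/r and 123 RPKM in r/r. MX1 made up 44.5% of that sum in R/r and 44.3% in r/r, while the share of MX2 was 3.20% and 8.94%.

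**Figure D1:**
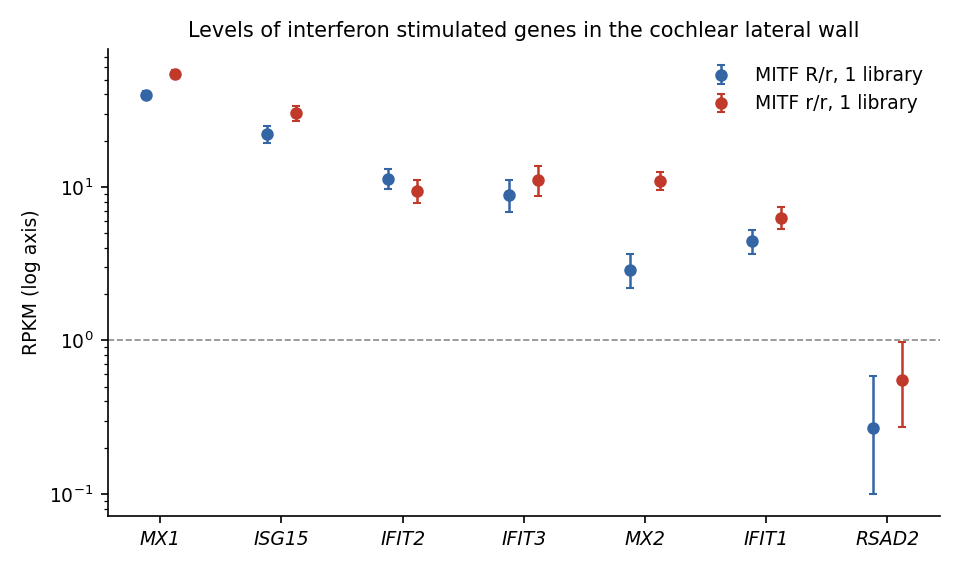
RPKM (log axis) of the 7 interferon stimulated genes above 0 in the R/r library (blue) and the r/r library (red), with exact 95% Poisson intervals of the reads as bars and the minimum of 1 RPKM as a dashed line. MX2 shows the widest gap of the genes above the line, from 2.86 to 11.0 RPKM, and IFIT2 is the 1 gene whose r/r point is below its R/r point.

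MX2 (ENSSSCG00000012076) had 61 reads in R/r and 211 in r/r, which was 3.84-fold higher in r/r (2.88 to 5.19) and a log2 ratio of 1.94 (1.52 to 2.38). Of the 9893 features with at least as many reads, 5 had a higher ratio. The ratio cannot be assigned to MX2 alone. An unnamed feature, ENSSSCG00000029477, had the same 61 and 211 reads (1.67 and 6.41 RPKM), and no further feature lay within 3 reads of MX2 in both libraries, so the reads of MX2 and of that feature cannot be told apart. Whether these features overlap was not tested.

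MX1 (ENSSSCG00000012077), next to MX2 in the order of genes, rested on 1141 and 1407 reads, the most of any member. Its log2 ratio was 0.45 (0.34 to 0.57), a 1.37-fold difference, and 37 of the 2295 features with at least as many reads (1.61%) had a higher one. MX1 had a small difference with a narrow interval, and the interval of the reads counted for MX2 did not overlap it. Since those reads cannot be assigned to MX2 alone, whether the MX genes differ from each other was not tested.

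ISG15 (ENSSSCG00000027982), with 241 and 298 reads, had a log2 ratio of 0.46 (0.21 to 0.71), and 123 of 7547 features with at least as many reads had a higher one. IFIT1 (ENSSSCG00000010453) had a log2 ratio of 0.51 (0.16 to 0.86) on 123 against 158 reads, with 151 of 9803 such features above it. The ratios of MX1, ISG15 and IFIT1 lay within each other's intervals. IFIT3 (ENSSSCG00000010452), with 71 and 80 recovered reads, had a log2 ratio of 0.32 (-0.16 to 0.80), an interval that included 0. If these reads are a fraction of the true ones, the interval is too wide, so a difference can be neither stated nor left out. Of 11724 features with at least as many recovered reads, 617 had a higher ratio.

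IFIT2 (ENSSSCG00000010451) went the other way, with a log2 ratio of -0.27 (-0.62 to 0.07) on 169 reads in R/r against 126 in r/r. This interval includes 0, and 873 of the 9651 features with at least as many reads (9.05%) had a lower ratio. The intervals of IFIT2 and IFIT1 did not overlap, while those of IFIT2 and IFIT3 did. The IFIT genes lie side by side and are related in sequence, and how the counting divided reads between them is not given in the sources used here. The deposited table calls ENSSSCG00000010452 IFIT3, and a newer Ensembl name table calls it IFIT1; the name in the deposited table is used here.

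RSAD2 (ENSSSCG00000008648, under its older symbol IRG6 in the table) had 6 reads in R/r and 11 in r/r, or 0.270 and 0.549 RPKM. Its log2 ratio of 1.03 had an interval of -0.54 to 2.74, so neither a higher nor a lower level could be told at this depth. IRF7 (ENSSSCG00000012853) was listed at 0 in both libraries, as were 6760 features in all. Among these was PSME1, a proteasome activator that most cells use, so a 0 in this table may not mean that the transcript was missing.

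The sum over the members was not set by 1 gene. Over the 6 genes with a ratio, the reads summed to a log2 ratio of 0.49 (0.40 to 0.58). Sums without single genes were taken after the values were seen: 0.54 (0.40 to 0.69) without MX1, 0.40 (0.30 to 0.49) without MX2, and 0.28 (0.12 to 0.44) without both MX genes. Each of these intervals lay above 0, and the sum without both MX genes was the lowest of them.

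The STAT and IRF regulators act upstream of the members. Of 15 listed regulators, 14 had a row and 12 passed the minimum; IRF4 had no row, STAT4 was listed at 0 and STAT6 had 1 read in R/r and 0 in r/r. At least 1.2-fold higher were 0 of the 12, beside 12.9% of all features, and 2 were at least 1.2-fold lower, beside 17.3%. The interval lay wholly above 0 for 1 of the 12, beside 11.2% of all features, and wholly below 0 for 6, beside 14.5%. In a list of this size the counts past 1.2-fold are near the background. The count of intervals below 0 is above it, but that background covers features of every depth. No share at the depth of the regulators was taken, so whether depth alone gives this excess was not tested. The median log2 ratio was -0.15 over the 12 regulators, -0.01 over 5 STAT genes and -0.18 over 7 IRF genes. The median of the effectors exceeded that of the regulators by 0.61. With each gene at the end of its interval nearest to or farthest from the other list, that difference ran from 0.13 to 1.05.

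**Figure D2:**
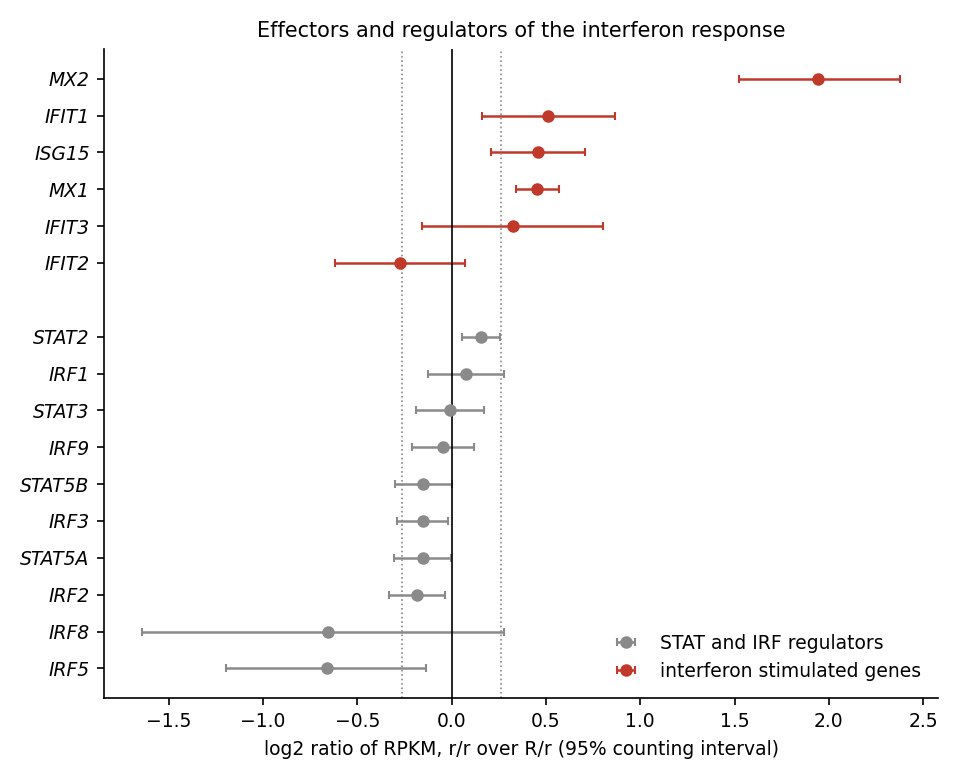
Log2 ratios of RPKM, r/r over R/r, of the 6 interferon stimulated genes (red) and of 10 of the 12 STAT and IRF regulators (grey) past the minimum, with exact 95% counting intervals as bars and 1.2-fold in each direction as dotted lines. Red points lie right of the upper dotted line in 5 of 6 genes, and grey points in 0 of 10.

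Both STAT2 and IRF9, parts of the complex that type I interferon assembles, were well covered by reads. STAT2 was 33.5 RPKM in R/r and 37.3 RPKM in r/r, a log2 ratio of 0.16 (0.05 to 0.26), the 1 regulator with an interval wholly above 0. IRF9 was 47.7 and 46.2 RPKM, a log2 ratio of -0.05 (-0.21 to 0.12). In both genes the interval left out a difference as large as that of MX1, ISG15 or IFIT1 as measured.

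IRF3, which is activated by nucleic acid sensors, had the highest level of the list at 74.4 RPKM in R/r and 66.9 RPKM in r/r, a log2 ratio of -0.15 (-0.29 to -0.02). STAT3 (55.0 and 54.7 RPKM) had a log2 ratio of -0.01. The 2 genes past 1.2-fold were the myeloid and lymphoid factors IRF5, at 2.20 and 1.39 RPKM with a log2 ratio of -0.66 (-1.20 to -0.14), and IRF8, at 4.67 and 2.96 RPKM from 28 and 16 reads with a log2 ratio of -0.66 (-1.64 to 0.28). IRF1, IRF2, STAT5A and STAT5B lay between -0.18 and 0.08.

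Interferon genes themselves were barely detected. Of 35 features for interferons, 15 were listed at 0 in both libraries and 27 had 3 reads or fewer in each. IFNB1, IFNG and IL28B, a type III interferon, were among those at 0. For 1 kb of transcript, 1 read equals 0.0632 RPKM in R/r and 0.0701 RPKM in r/r, which sets the level that could be seen. The 5 features past the minimum were IFN-ALPHA-11 (2.43 and 1.67 RPKM), IFN-ALPHA-16 (2.33 and 2.46 RPKM), IFN-DELTA-1 (1.38 and 1.15 RPKM), IFN-OMEGA-2 (1.26 and 1.40 RPKM) and IFN-OMEGA-6 (1.21 and 1.35 RPKM). Of these 5, IFN-ALPHA-11 and IFN-DELTA-1 were past 1.2-fold lower in r/r, beside 17.3% of all features, and 0 were higher, beside 12.9%. IFN-ALPHA-11 rested on 21 and 13 reads and IFN-DELTA-1 on 12 and 9, and both intervals included 0. The 35 features summed to 11.8 RPKM in R/r and 10.5 RPKM in r/r. Genes of the alpha, delta and omega families are close copies within each family, so the share of each such feature is uncertain.

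Of 9 receptors and kinases listed, 5 had a row, and 0 were past 1.2-fold in either direction, beside 12.9% of all features higher and 17.3% lower, which is near the background for 5 genes. JAK1 was highest, at 79.1 RPKM in R/r and 86.5 RPKM in r/r, a log2 ratio of 0.13 (0.01 to 0.25). TYK2 (30.0 and 28.0 RPKM) had one of -0.10 (-0.18 to -0.01) and IFNGR1 (33.5 and 29.8 RPKM) one of -0.17 (-0.31 to -0.03), so small differences in both directions exceeded counting error. The intervals of IFNAR2 (19.6 and 17.2 RPKM) and JAK2 (7.63 and 8.44 RPKM) included 0. IFNAR1, IFNGR2, IFNLR1 and IL10RB had no row.

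Sensors of foreign nucleic acid, several of which interferon also induces, formed a further list. Of 11 past the minimum, 3 were at least 1.2-fold higher in r/r, beside 12.9% of all features, and 1 was lower, beside 17.3%, with a median log2 ratio of 0.05. RIGI, which detects viral RNA in the cytoplasm, was 3.66 RPKM in R/r and 4.87 RPKM in r/r, a log2 ratio of 0.41 (0.21 to 0.62). The kinase IKBKE, at 1.07 and 1.85 RPKM, had a log2 ratio of 0.78 (0.08 to 1.51), and the RNA helicase DHX58, at 3.05 and 4.41 RPKM, one of 0.53 (-0.02 to 1.09). IFIH1, the sensor of long double-stranded RNA, was 4.88 and 4.78 RPKM, a log2 ratio of -0.03 (-0.32 to 0.26). STING1, the adaptor of DNA sensing, was lower in r/r, at 13.8 and 10.1 RPKM, a log2 ratio of -0.45 (-0.78 to -0.12). MAVS (54.4 and 56.9 RPKM) and MYD88 (23.9 and 24.9 RPKM), the most abundant of the list, each had a log2 ratio of 0.06.

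Genes that attach ISG15 to proteins or remove it were set beside ISG15, and whether they differed from it was not tested. HERC5, a ligase for ISG15, was the 1 of 6 at least 1.2-fold higher, beside 12.9% of all features, at 4.53 RPKM in R/r and 6.11 RPKM in r/r, a log2 ratio of 0.43 (0.16 to 0.71). TRIM25 (25.2 and 30.2 RPKM) had a log2 ratio of 0.26 (-0.01 to 0.53), just short of 1.2-fold. The activating enzyme UBA7 (15.6 and 16.4 RPKM) and the conjugating enzyme UBE2L6 (17.6 and 16.8 RPKM) had log2 ratios of 0.07 and -0.07. Of 11 inhibitors of the pathway, 1 was at least 1.2-fold higher and 0 lower, beside the same 12.9% and 17.3%, with a median of 0.04: the phosphatase PTPN2, at 10.3 and 12.7 RPKM, had a log2 ratio of 0.31 (0.04 to 0.58). USP18, which removes ISG15, is induced by interferon and blocks its receptor, was 5.76 and 6.56 RPKM, a log2 ratio of 0.19 (-0.19 to 0.57).

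A wider list held 67 other genes that interferons induce, of which 49 had a row and 38 passed the minimum. At least 1.2-fold higher in r/r were 10 of the 38, beside 12.9% of all features, and 2 were lower, beside 17.3%; 0 were past 2-fold. Of the 10, GBP4 passed the minimum through the r/r library alone, and of the 2, CXCL10 passed it through the R/r library alone. The minimum fixed their directions, so neither gene adds weight to its count. GBP4 is also among the 9 intervals above 0 given below. The median log2 ratio was 0.12, against 0.46 for the members. Intervals lay wholly above 0 for 9 genes, beside 11.2% of all features, and wholly below 0 for 1, beside 14.5%. Of the 38 ratios, 13 lay below 0, as did 8711 of those of all 16331 features.

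The genes of that list past 1.2-fold came from several branches of the response. GBP1, a GTPase that coats pathogens, was 5.14 RPKM in R/r and 7.99 RPKM in r/r, a log2 ratio of 0.64 (0.33 to 0.95). IFI44 was 6.44 and 9.57 RPKM, a log2 ratio of 0.57 (0.24 to 0.91), and the related IFI44L was 17.96 and 23.4 RPKM, one of 0.38 (0.14 to 0.63). Of the oligoadenylate synthetases, OAS2 was higher in r/r (9.78 and 12.7 RPKM, log2 ratio 0.38), and OAS1 (17.8 and 19.0 RPKM) had a log2 ratio of 0.10 (-0.10 to 0.29). SP110 was 7.03 and 9.24 RPKM, a log2 ratio of 0.39 (0.15 to 0.64). EIF2AK2, the kinase PKR (0.35), DDX60 (0.49) and PSMB8 (0.34, from 7 and 8 reads) were past 1.2-fold with intervals that included 0. GBP4 (log2 ratio 0.77, 28 and 43 reads) was 0.752 and 1.28 RPKM.

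Of the genes lower in r/r, IFI35 was 22.5 RPKM in R/r and 18.1 RPKM in r/r, a log2 ratio of -0.32 (-0.54 to -0.09). The chemokine CXCL10 was 1.45 and 0.842 RPKM, a difference of -0.78 (-1.98 to 0.34) in log2 on 21 against 11 reads; CXCL11 was listed at 0. The 4 most abundant genes of the list were SHISA5 (53.1 and 53.2 RPKM), TRAFD1 (49.0 and 49.7 RPKM), IFIT5 (38.4 and 37.2 RPKM) and TDRD7 (21.4 and 25.6 RPKM), with log2 ratios of 0.00, 0.02, -0.05 and 0.26. IFIT5, of the same family as 3 members, thus showed no difference of the size of IFIT1, with an interval of -0.19 to 0.10.

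**Figure D3:**
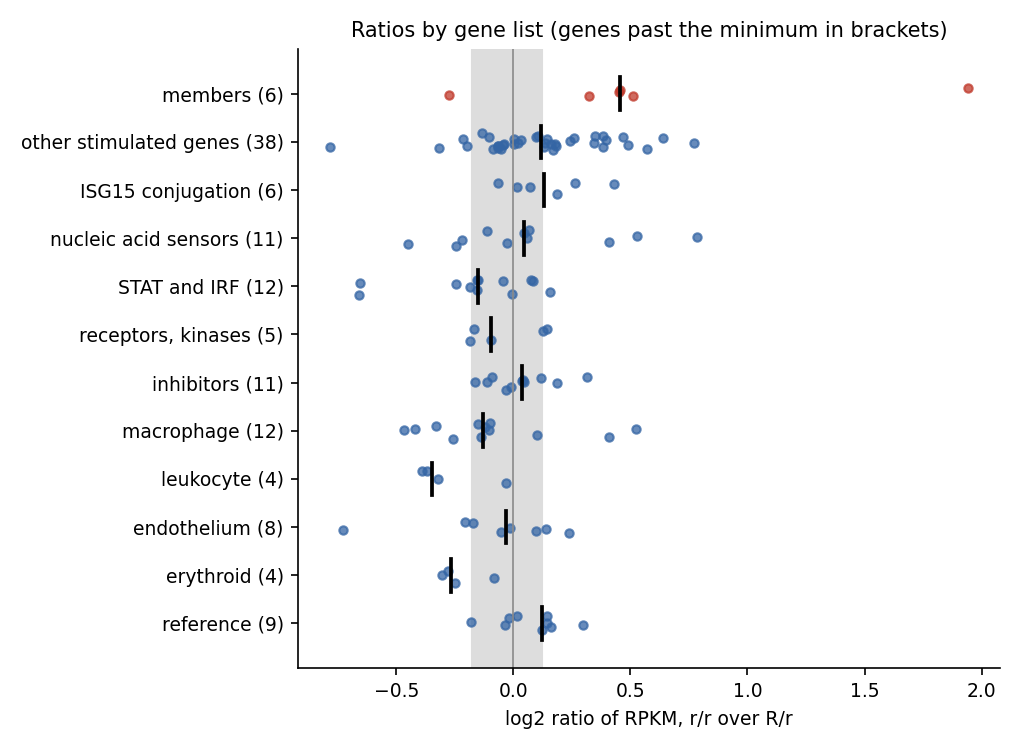
Log2 ratios of RPKM, r/r over R/r, of each gene past the minimum (points, spread vertically at random), by gene list, with the number of genes in brackets and the median as a black bar. The grey band spans the middle 50% of all 16331 features, and the median of the members, 0.46, lies to its right, while the median of the other stimulated genes, 0.12, lies within it.

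Of the MHC class I antigen presentation genes, which interferons also induce, 9 passed the minimum, and 2 were at least 1.2-fold higher (B2M, and PSMB8 on 7 and 8 reads) and 1 was lower, TAP2 (2.83 and 1.36 RPKM, log2 ratio -1.05, -1.83 to -0.32), counts near the 12.9% and 17.3% of all features. B2M, the light chain of class I molecules, was 260 RPKM in R/r and 319 RPKM in r/r, a log2 ratio of 0.30 (0.24 to 0.36).

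The place of the members among genes of like depth can be seen in the scatter of all features. MX2 lay above nearly every feature of its depth, MX1, ISG15 and IFIT1 near the upper edge of the cloud, and IFIT3 and IFIT2 inside it.

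**Figure D4:**
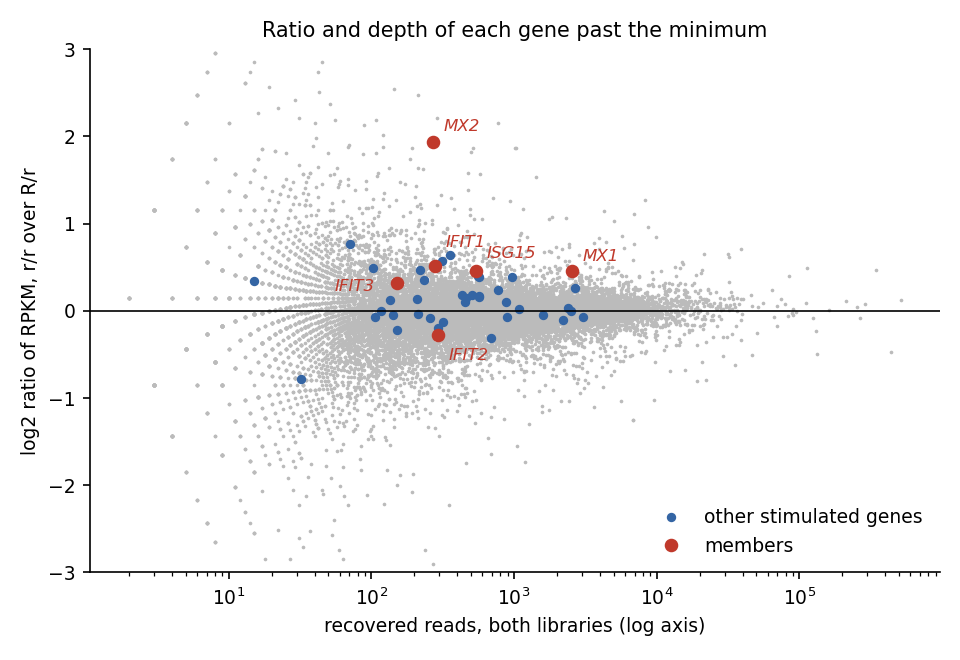
Log2 ratio of RPKM, r/r over R/r, against the recovered reads of both libraries together (log axis) for features past the minimum (grey), with the 38 other stimulated genes in blue and the 6 members in red. Of 16331 features, 16293 are drawn and 38 lie beyond a log2 ratio of 3 in either direction; the ratios spread more at low reads, and MX2 stands at 1.94.

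Genes next to the members on the chromosomes were compared, in the order of the RefSeq annotation. Up to 2 genes on each side were taken, and they included genes higher, lower and within counting error. By the MX genes, BACE2 was higher in r/r, at 9.90 and 13.3 RPKM with a log2 ratio of 0.42 (0.20 to 0.64), and TMPRSS2 was lower, at 14.2 and 11.6 RPKM with one of -0.28 (-0.48 to -0.09). FAM3B had 1 and 3 reads. By ISG15, AGRN (32.1 and 27.2 RPKM) had a log2 ratio of -0.24 (-0.36 to -0.12), and HES4 had one of -0.57 (-1.64 to 0.45). By the IFIT genes, LIPA (-0.11), CH25H (0.00) and SLC16A12 (0.11) had intervals that included 0.

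By RSAD2, the transcription factor ID2 was 105 RPKM in R/r and 173 RPKM in r/r, a log2 ratio of 0.72 (0.65 to 0.80), while the interferon stimulated CMPK2 (1.41 and 1.54 RPKM) had one of 0.13 (-0.38 to 0.64) and RNF144A one of 0.07. By IRF7, PHRF1 was lower in r/r, at 12.01 and 8.56 RPKM with a log2 ratio of -0.49 (-0.60 to -0.38), and RASSF7 (3.49 and 3.01 RPKM) had one of -0.21. Around the place of IFI6, for which no row was matched, FGR (0.03), FAM76A (-0.15) and STX12 (0.01) had intervals that included 0. A pool of 8203 features with at least 288 reads was searched for the log2 ratios nearest to the median of the members. The pool left out the members MX1, ISG15 and IFIT2 and did not hold every feature of that depth, since 9651 had at least 295 reads. The 3 nearest in the pool, over these 2 libraries, were KLHL40, RFFL and ITGA8, at 0.45, 0.46 and 0.45. This likeness rests on 1 ratio each.

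In bulk tissue, fewer cells of a type and less RNA per cell cannot be told apart, so markers of cells that make or answer interferons were set beside the members. The background for each count of markers past 1.2-fold is 12.9% of all features higher and 17.3% lower. Of 14 macrophage markers, 12 passed the minimum, 2 were at least 1.2-fold higher in r/r (MRC1 at 0.41, -0.04 to 0.87, and LYZ at 0.52, -0.07 to 1.13) and 3 were lower (CSF1R at -0.47, ITGAM at -0.42 and CD14 at -0.33). These counts are near the 12.9% and 17.3% of all features. The median log2 ratio was -0.13, and 9 of the 12 ratios lay below 0, beside 8711 of all 16331. The interval lay wholly above 0 for 0 markers, beside 11.2% of all features, and wholly below 0 for 1, CSF1R, beside 14.5%. They summed to 98.5 RPKM in R/r and 91.8 RPKM in r/r, with C1QC most abundant (21.6 and 20.03 RPKM), and CD163 had 2 reads and 1 read. The 4 general leukocyte markers summed to 41.8 and 33.3 RPKM, with LAPTM5 most abundant (26.5 and 20.5 RPKM); CD53, LAPTM5 and CORO1A were at least 1.2-fold lower, and PTPRC had a log2 ratio of -0.03 (-0.40 to 0.34).

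Of 15 lymphocyte markers, 3 passed the minimum, CD79B was at least 1.2-fold higher (0.30, -0.17 to 0.76), and the list summed to 16.5 RPKM in R/r and 17.2 RPKM in r/r, with NKG7 most abundant (9.37 and 9.77 RPKM). CD3D and CD3E had 1 read in each library, CD3G had 0 and 1, and GZMB and NCR1 were listed at 0. Of the markers of plasmacytoid dendritic cells, the main source of type I interferon in blood, CLEC4C, LILRA4 and SPIB had no row, and IL3RA had 0 reads in R/r and 1 in r/r. The 5 markers with a row summed to 19.3 and 18.6 RPKM, most of it TCF4 (16.2 and 14.9 RPKM), which many other cells make. PACSIN1 was 2.59 and 3.10 RPKM, SIGLEC1 had 47 and 35 reads, and 0 of the 2 past the minimum were past 1.2-fold.

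Of 11 neutrophil markers, 3 passed the minimum and were at least 1.2-fold lower in r/r, and the list had sums of 184 RPKM in R/r and 106 RPKM in r/r. LCN2 (105 and 51.3 RPKM) and MMP9 (71.4 and 49.7 RPKM), which cells other than neutrophils also make, gave most of these sums, whereas S100A8 had 4 and 2 reads, MPO 7 and 2, and CAMP was listed at 0. ELANE, with 15 and 10 reads, had an interval that included 0 (-1.75 to 0.82). LTF, below the minimum, was higher in r/r, with 6 and 15 reads and an interval of 0.03 to 3.13. Erythroid markers summed to 1708 and 1438 RPKM, nearly all HBB (1655 and 1393 RPKM), with HBM and ALAS2 the 2 of 4 at least 1.2-fold lower (-0.28 and -0.30). Endothelial markers summed to 290 and 287 RPKM, with CLDN5 most abundant (71.3 and 76.3 RPKM) and VWF the 1 of 8 past 1.2-fold, at -0.73 (-1.08 to -0.38).

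Intermediate cells of the SV, which are melanocytes, had the widest gap of the marker lists. Of 9 intermediate cell markers past the minimum, 8 were at least 1.2-fold lower in r/r, beside 17.3% of all features, and 7 at least 2-fold lower, beside 2.20%. KCNJ13, TYR, PMEL, TRPM1 and SLC45A2 passed the minimum through the R/r library alone and so had to be lower in r/r. The list summed to 385 RPKM in R/r and 86.5 RPKM in r/r; DCT was most abundant in R/r, and KIT (43.6 and 44.2 RPKM) had a log2 ratio of 0.02. MLANA was 12.03 RPKM in R/r and listed at 0 in r/r. At that level its 4 recovered reads would need a transcript shorter than 1 read of 100 bases. They are therefore a fraction of the true reads, and the interval of MLANA is too wide to be read. TYRP1 had 1 read in each. Of 6 marginal cell markers, 4 were at least 1.2-fold lower, beside 17.3% of all features, among them ATP1B2, ESRRB and BSND, with sums of 1922 and 1442 RPKM and ATP1B2 most abundant (915 and 522 RPKM). Of 4 markers of basal cells and fibrocytes past the minimum, COCH was at least 1.2-fold lower (-0.47) and CA3 higher (0.40, 1296 and 1712 RPKM), with sums of 9017 and 7384 RPKM. The part of each of these cell types in the ratios of the interferon stimulated genes was not tested.

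**Figure D5:**
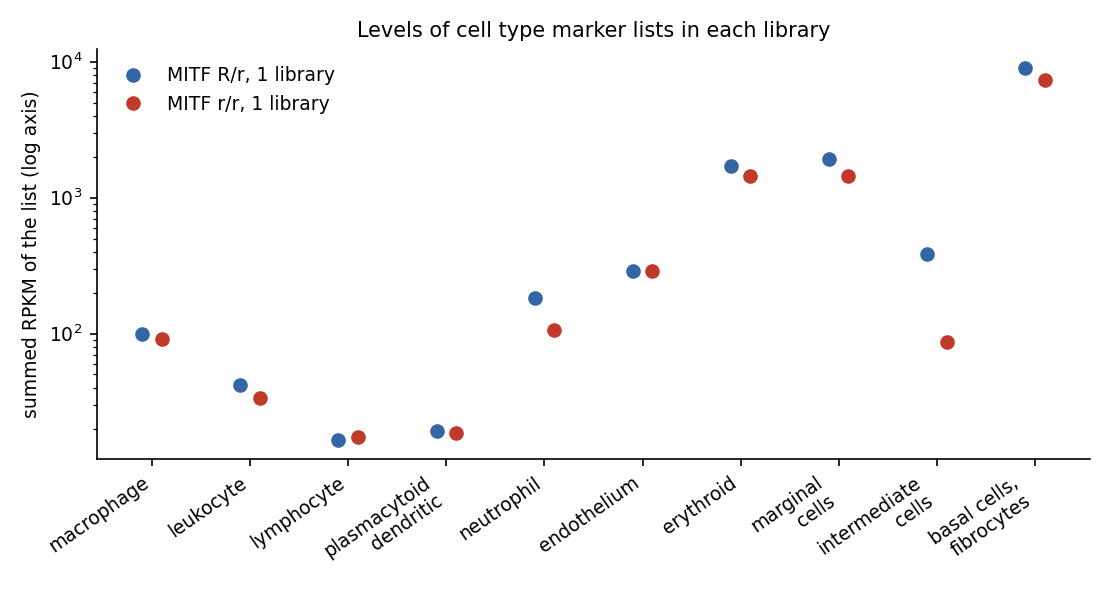
Summed RPKM (log axis) of each list of cell type markers in the R/r library (blue) and the r/r library (red). Macrophage, lymphocyte, plasmacytoid dendritic cell and endothelial sums lie close together, and the intermediate cell sum shows the widest gap, from 385 to 86.5 RPKM.

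Reference genes give the scale of differences in transcripts of steady use. Of 9 with a row, 1 was at least 1.2-fold higher in r/r, beside 12.9% of all features, and 0 were lower, beside 17.3%. GUSB had a log2 ratio of -0.18 and TBP one of 0.16, with PPIA (1172 and 1276 RPKM) at 0.12, GAPDH (993 and 1003 RPKM) at 0.01 and ACTB (548 and 605 RPKM) at 0.14. The median of the reference genes was 0.12, equal after rounding to that of the other stimulated genes.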

How the data were processed

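RNA of the cochlear lateral wall was sequenced by the authors as 100-bp paired-end TruSeq libraries on a HiSeq 2000 and aligned to Sscrofa10.2 with TopHat 2.0.7. The deposited values are RPKM, scaled by the authors to exon length and mapped reads; the counting program and annotation are not given in the sources used here. Groups came from the genotype labels. A few genes of the lists are not reported here.

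Members, lists and the 1.2-fold threshold were chosen with earlier results of these data known, while 2-fold is the threshold of the study. Named are the members and the genes of each other list at least 1.2-fold apart, listed at 0 or among the 4 highest in mean RPKM. Up to 2 neighbours on each side were also named, and the 3 genes nearest to the members' median in the pool of 8203 features. Other genes named were chosen after their values were seen. Where features share a name, that with the highest mean RPKM was used. Names came from the table (15725 features), a RefSeq accession (569) or an Ensembl name (2048), and 9280 stayed unnamed; interferon ligands were matched by description, added after seeing the table. RefSeq of a later assembly, Sscrofa11.1, gave only names and gene order.

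Whole reads were recovered from RPKM, a step chosen after seeing the data: library totals were those that made lengths whole (within 0.002) for 71.3% of 300 genes, and reads were found for all 20862 features above 0. Of 13 mitochondrial genes, 8 had the RefSeq length and 3 more a whole fraction of it. Recovered reads may be a fraction of the true ones, which widens intervals. Features with at least 100 reads in total were taken to share reads where those with equal reads in both libraries were at least as many as the others within 3 reads, which held for 131. The steps were tested on simulated data. The 2 unnamed columns, with values for 22 genes, were not used. Alternatives were pseudocounts, minimums, scalings and choices of features. Values were computed in Python 3.11.15 with pandas 2.3.3 and numpy 2.4.6, intervals with scipy 1.17.1, and figures with matplotlib 3.10.9.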

Additional observations from a re-analysis of the deposited data

How the results depend on the processing

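No paired analysis was possible because each genotype had 1 library. Pseudocounts of 0.1 and 1 RPKM, no minimum, a minimum of 5 RPKM, scaling by the median ratio or to TPM, features of a symbol summed, and genes that share reads left out were tried, 8 alternatives in all. The median log2 ratio of the members lay between 0.42 and 0.47, its difference from the regulators between 0.55 and 0.61, and the count at least 1.2-fold higher between 4 and 6. The count at least 2-fold higher, 1, became 2 with no minimum, through RSAD2, and 0 with genes that share reads left out, since MX2 then has no value. All 47 values of single members that the alternatives gave lay within their counting intervals, and 0 changed direction. IFIT2 was no longer past 1.2-fold lower with a pseudocount of 1 RPKM or after scaling by the median. Scaling subtracted -0.02 (median ratio) or 0.04 (TPM) from every log2 ratio. Few recovered reads limit IFIT3, RSAD2, the interferon genes and other genes with low counts. Every value here is limited by 1 library per genotype: no alternative stands in for a second animal.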
